A study of Mus musculus with 2 samples.

Results

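*Il1rl1*, *Aplnr*, *Pla2g2d*, *St8sia4* and *Maoa* are 5 of the genes that the study names as specific to macrophages of peripheral nerves. They were listed by name, and all 5 were found among the 54838 genes of the count tables. The mice carried Flt3-Cre and were LSL-YFP fl/fl. Cre is driven by *Flt3*, so a cell that has passed through a *Flt3*-expressing stage keeps YFP. A cell in which the reporter did not recombine also stays YFP-. CD64+ CD45int macrophages of sciatic nerves were pooled from 19 male mice aged 10 to 12 weeks, sorted into YFP- and YFP+ cells, and sequenced as 1 single-cell library per group. Macrophages of other tissues are not analysed here, so specificity to nerves is the premise of the list and not a result. The study also places *Il1rl1* and *Maoa* among genes that were low in microglia of the brain but intermediate to high in those of the spinal cord.

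In the count tables, a UMI stands for 1 captured RNA molecule read at its 3′ end. A cell was a barcode with at least 500 UMIs and 200 genes, which gave 1045 YFP- and 4053 YFP+ cells, 5098 in all. Cells held 66.2% of 3653688 UMIs in the YFP- library and 72.05% of 9365598 UMIs in the YFP+ library. The median depth was 2233 UMIs in YFP- and 1484 UMIs in YFP+ cells. 7 barcodes were called in both libraries. All 8 macrophage markers, among them *Csf1r*, *Adgre1* and *C1qa*, were detected in both libraries, and 98.9% of YFP- and 98.1% of YFP+ cells had UMIs of at least 2 of them. With 1 library per group there are no replicates, so no test between the groups was made. Parentheses hold 95% intervals, which cover counting error only and leave out any spread between mice or sorts. Intervals of levels and ratios also leave out uneven spread between cells. They are too narrow for genes spread more unevenly than Poisson counts.

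The 5 genes encode a pair of receptors and 3 enzymes. ST2, the product of *Il1rl1*, binds the alarmin IL-33 together with the co-receptor IL1RAP and signals through MYD88, and a soluble form of ST2 acts as a decoy. APLNR is a G protein-coupled receptor for the peptides apelin and ELA. Among the enzymes, PLA2G2D is a secreted phospholipase A2 that releases fatty acids from phospholipids and is known from macrophages and dendritic cells of lymphoid tissue. ST8SIA4 is a polysialyltransferase that builds polysialic acid on carriers such as NCAM1 and NRP2, and MAOA is a mitochondrial enzyme that oxidizes noradrenaline and serotonin.

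In the GENCODE M21 annotation of GRCm38, all 5 are protein-coding genes. *Il1rl1* lies on the plus strand at chr1:40429570-40465415 and *St8sia4* on the minus strand of the same chromosome at chr1:95587682-95667571. *Aplnr* lies at chr2:85136225-85139923, *Pla2g2d* at chr4:138775735-138782046 and *Maoa* at chrX:16619698-16687818, all on the plus strand. Counting at 3′ ends does not separate the soluble from the membrane form of *Il1rl1*, nor start sites from each other.

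*Pla2g2d* and *St8sia4* were the most and the least uneven of the members over the cell clusters described further on, and the 250 bases before their RefSeq start sites (GRCm38.p6) are shown to set these genes side by side, a choice made after their values were seen. Capitals mark each CG dinucleotide, and both sequences run 5′ to 3′ on the strand of the gene, chr4:138775485-138775734 on the plus strand for *Pla2g2d* and chr1:95667595-95667844 on the minus strand for *St8sia4*.
Pla2g2d: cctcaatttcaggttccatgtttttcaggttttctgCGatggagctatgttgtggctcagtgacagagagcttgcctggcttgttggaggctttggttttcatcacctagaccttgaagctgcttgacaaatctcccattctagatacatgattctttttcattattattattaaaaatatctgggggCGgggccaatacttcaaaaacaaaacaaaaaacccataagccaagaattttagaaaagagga
St8sia4: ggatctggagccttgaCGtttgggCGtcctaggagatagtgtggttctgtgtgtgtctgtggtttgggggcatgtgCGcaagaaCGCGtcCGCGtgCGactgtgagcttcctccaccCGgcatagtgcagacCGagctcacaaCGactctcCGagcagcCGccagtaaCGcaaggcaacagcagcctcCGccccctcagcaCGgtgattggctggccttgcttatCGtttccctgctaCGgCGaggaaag
The window of *Pla2g2d* held 2 CG dinucleotides at a GC content of 39.6%, and that of *St8sia4* held 19 at 60.4%. The median over 32851 RefSeq promoter windows of this length was 6. The window of *Maoa* held 11 and the windows of the 2 start sites of *Il1rl1* held 0 and 3. A GC box (GGGCGG, searched on both strands) was found once in the windows of *Pla2g2d*, *St8sia4* and *Maoa* and in 1 of the 2 of *Il1rl1*, and in 32.7% of all windows. It contains a CG dinucleotide, so the 2 searches overlap. The core of the PU.1 motif, a factor of the macrophage lineage, was searched as GAGGAA on both strands. It was present once on each strand in *St8sia4*, absent from the windows of the other members searched, and present in 23.3% of all windows. These matches describe letters and no binding was measured.

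The receptor genes were at like levels in both libraries or near the limit of detection. *Il1rl1* had 210 UMIs in YFP- cells, or 86.8 UMIs per 1000000 UMIs of all genes (CPM, 75.5 to 99.4), and 563 UMIs in YFP+ cells, or 83.4 CPM (76.7 to 90.6). The intervals overlapped. The log2 ratio of YFP+ over YFP- cells, taken after adding 1 CPM, was -0.06 (-0.29 to 0.18). *Aplnr* had 3 UMIs in YFP- cells, each in a different cell, which is at the floor of 3 counts set for a level. In YFP+ cells it had 33 UMIs in 33 cells, or 4.89 CPM (3.37 to 6.87). The ratio of the CPM values of *Aplnr* was 3.94 with a counting interval of 1.24 to 20.1, and its mean level was under the 20 CPM required for a comparison across genes.

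Among the enzymes, *Pla2g2d* was lower in YFP+ cells by more than its counting error. It had 738 UMIs and 305 CPM (284 to 328) in YFP- cells and 1278 UMIs and 189 CPM (179 to 200) in YFP+ cells. These intervals lay well apart. The log2 ratio was -0.69 (-0.82 to -0.55), a level 1.61-fold lower in YFP+ cells. *Maoa* had 80 UMIs and 33.1 CPM (26.2 to 41.2) in YFP- cells and 164 UMIs and 24.3 CPM (20.7 to 28.3) in YFP+ cells, with a log2 ratio of -0.43 (-0.81 to -0.04). Its level intervals overlapped. The interval of the ratio of *Maoa* reached 0 without the 5% of cells with most UMIs (-0.41, -0.82 to 0.01), in cells with at least 1000 UMIs (-0.37, -0.78 to 0.04) and without the *Ccr2*-led cluster 2 described further on (-0.33, -0.74 to 0.09). *St8sia4* had 347 UMIs and 143.5 CPM (129 to 159) in YFP- cells and 937 UMIs and 138.9 CPM (130 to 148) in YFP+ cells, with a log2 ratio of -0.05 (-0.23 to 0.13).

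Of 5531 genes with a mean of at least 20 CPM, 197 (3.56%) were past 2-fold between the libraries in either direction, 14 (0.253%) higher and 183 (3.31%) lower in YFP+ cells. 0 of the 4 members compared was past 2-fold. The log2 ratio of *Pla2g2d* was at the 5.21 percentile of all genes compared and that of *Maoa* at the 8.32 percentile. *Il1rl1* and *St8sia4* were at the 39.7 and 41.3 percentiles. The median log2 ratio was -0.24 over the 4 members and -0.0024 over all genes compared. In the plot of all genes, *Pla2g2d* is the member farthest from 0 among those compared.

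**Figure D1:**
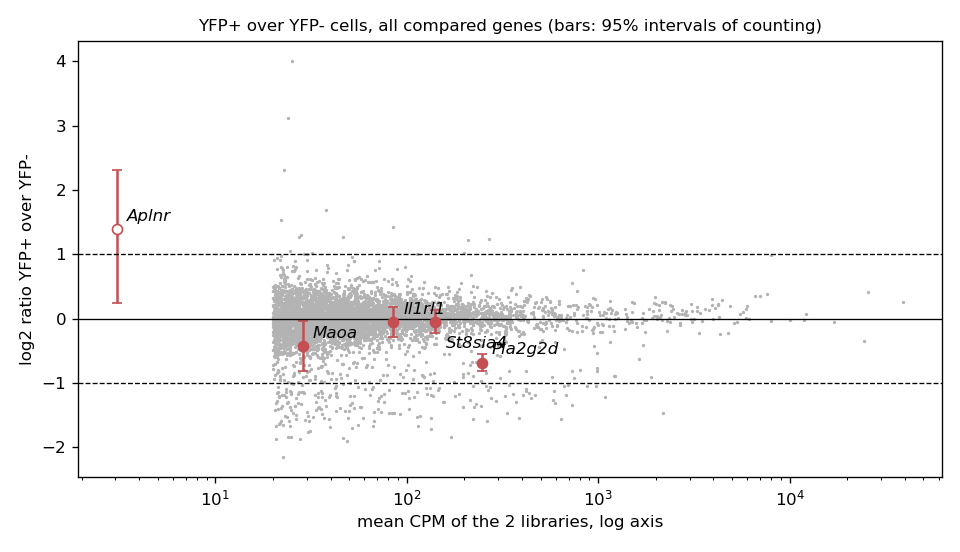
Log2 ratio of YFP+ over YFP- cells (vertical axis) against the mean CPM of both libraries (horizontal, log axis) for the 5531 genes compared (grey) and the 5 members (red, with 95% counting intervals; open symbol for *Aplnr*, under 20 CPM). Dashed lines mark 2-fold. The interval of *Pla2g2d* (-0.82 to -0.55) lies between 0 and the lower line, while those of *Il1rl1* and *St8sia4* include 0.

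RNA outside cells was measured in barcodes with 10 to 100 UMIs, and the members differed in how they stood against it. *Pla2g2d* had 252 CPM in this free RNA of the YFP- library and 126 CPM in that of the YFP+ library. Its log2 ratio of cells over free RNA was 0.28 (0.06 to 0.50) in YFP- and 0.58 (0.39 to 0.78) in YFP+, so both intervals lay above 0. *Maoa* lay the other way, at 48.4 CPM in the free RNA of YFP- and 38.3 CPM in that of YFP+, with log2 ratios of -0.53 (-1.07 to 0.02) and -0.64 (-1.02 to -0.24). *Il1rl1* had log2 ratios of -0.31 (-0.66 to 0.05) and -0.18 (-0.42 to 0.06), and *St8sia4* of 0.17 (-0.14 to 0.48) and 0.09 (-0.11 to 0.29). The free RNA of *Pla2g2d* was itself lower in the YFP+ library. With an assumed share of 10% free RNA subtracted from both libraries, its log2 ratio between libraries was -0.66. The share was set and not estimated, so this value does not measure the part of free RNA in the ratio.

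**Figure D2:**
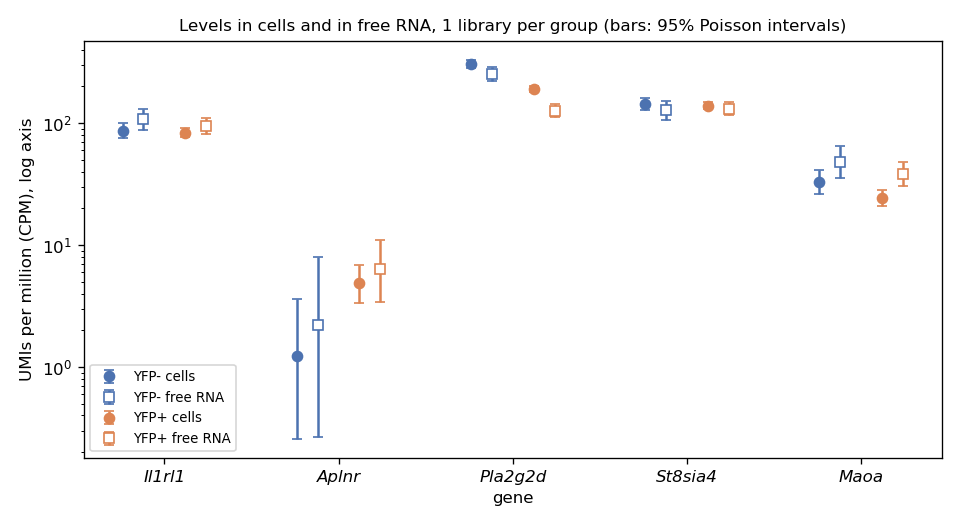
Levels in CPM (log axis) of the 5 members in cells (filled circles) and in free RNA (open squares) of the YFP- (blue) and YFP+ (orange) libraries, with 95% Poisson intervals and 1 library per group. *Pla2g2d* is at 305 CPM in YFP- cells and 189 in YFP+ cells and is the member whose log2 ratio of cells over free RNA has an interval above 0 in both libraries.

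UMIs of the members were found in a minority of cells. With each cell thinned to 500 UMIs, which left out no cell, *Pla2g2d* was seen in 14.0% (11.9 to 16.2) of YFP- and 9.10% (8.24 to 10.0) of YFP+ cells. A barcode of free RNA alone would show it in 11.8% and 6.12% of cases at that depth. *St8sia4* was seen in 6.79% (5.34 to 8.49) and 7.30% (6.52 to 8.15), where free RNA would give 6.18% and 6.33%. *Il1rl1* was seen in 3.44% (2.42 to 4.74) and 4.27% (3.67 to 4.94) against 5.24% and 4.63%, and *Maoa* in 1.63% (0.9504 to 2.59) and 1.38% (1.05 to 1.79) against 2.39% and 1.90%. *Aplnr* was seen in 0 of 1045 YFP- cells, with an interval up to 0.352%, where 3 cells of the total would be 0.287%. It was seen in 0.247% (0.118 to 0.453) of YFP+ cells. Per-cell detection of *Il1rl1*, *Maoa* and *Aplnr* was not above the free RNA share, so it cannot be told from free RNA here. The interval of *St8sia4* included that share in YFP- cells and began just above it in YFP+ cells. The libraries were made from sorted macrophages, whose own RNA can be part of the free RNA. A share at that level therefore does not show that a gene is absent from the cells.

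As a further comparison, cluster 9 held 88 cells with the smooth muscle genes *Acta2* and *Tagln* among its leading genes, at a median of 950 UMIs. All 8 macrophage markers were detected in it, at a sum of 6005 CPM, and its Schwann cell markers summed to 15315 CPM. It is therefore not a background free of macrophage RNA. After thinning, *Pla2g2d*, *Il1rl1* and *Maoa* were each seen in 1.14% (0.0288 to 6.17) and *St8sia4* in 2.27% (0.276 to 7.97) of these cells. Without thinning, *Pla2g2d* was seen in 38.6% of YFP- and 22.4% of YFP+ cells, *St8sia4* in 26.3% and 19.0%, *Il1rl1* in 15.9% and 12.8%, *Maoa* in 6.79% and 3.85%, and *Aplnr* in 0.287% and 0.814%. These unthinned shares move with depth, which was greater in YFP- cells. At these depths, free RNA alone would show *Pla2g2d* in 41.9% and 18.4% of cases, *St8sia4* in 24.8% and 19.0%, and *Il1rl1* in 21.5% and 14.3%. For *Maoa* it would give 10.5% and 6.13%, and for *Aplnr* 0.507% and 1.06%. Only *Pla2g2d* in YFP+ cells had an interval (21.1 to 23.7) above this share. In YFP- cells its interval (35.6 to 41.6) lay below the share.

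The UMIs of *Pla2g2d* were the most unevenly spread of those of the compared members. Up to 10 of its UMIs were counted in 1 YFP- cell and up to 7 in 1 YFP+ cell. Cells with at least 3 UMIs of *Pla2g2d*, 83 of YFP- and 79 of YFP+, held 44.3% and 21.3% of its UMIs. At 1 common rate, given each cell's depth, 499 YFP- and 1054 YFP+ cells would hold a UMI, where 403 and 908 did. Its variance over cells was 1.83 times and 1.46 times that of Poisson counts, above 97.0% and 96.2% of genes with at least 20 CPM, whose medians were 1.16 and 1.05. At the same relative spread this ratio is larger for genes of higher level and in deeper cells. The genes were not matched for level, nor the libraries for depth, in this comparison. For *Il1rl1* the same ratio was 1.30 and 0.982, and no cell had more than 4 of its UMIs. For *St8sia4* it was 1.24 and 1.204, above 68.6% and 90.2% of those genes, and for *Maoa* 1.51 and 1.11, above 93.2% and 73.5%. *Maoa* never exceeded 2 UMIs and *Aplnr* never exceeded 1 UMI in a cell.

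Clustering all cells without the 5 members gave 10 clusters, and the levels of the members in them are descriptions. Cluster 2 (856 cells) was led by *S100a4*, *S100a6* and *Ccr2*, the chemokine receptor of inflammatory monocytes, and is called *Ccr2*-led. Of the other monocyte markers, *Crip1* was at 1754 CPM in all YFP- and 2207 CPM in all YFP+ cells. *Ly6c2* had 1 UMI in all YFP- and 0 in all YFP+ cells, and *Plac8* had 0 in both. The 6 markers of this list summed to 5101 CPM in cluster 2. They summed to 1527 to 2720 CPM in clusters 1 and 3 to 7, and to 5213, 7578 and 4022 CPM in clusters 8, 9 and 10. The macrophage markers of cluster 2 summed to 15770 CPM, so it is not named after monocytes. Cluster 3 (830 cells) was led by the immediate early genes *Fosb*, *Jun* and *Fos*, and cluster 6 (313 cells) by *Ccl4*, *Cxcl2* and the heat shock gene *Hspa1a*. Cluster 7 (156 cells) was interferon-like (*Irf7*, *Ifi213*, *Ifit3*), cluster 8 (132 cells) was led by *Cd209f*, *Cd209g* and *Fcna*, and cluster 10 (75 cells) was cycling-like (*Top2a*). Cluster 4 (772 cells) was led by the fibroblast genes *Dcn* and *Col1a1*, but its macrophage markers summed to 14734 CPM, within the range of 12890 to 17675 CPM of the clusters other than cluster 9. They summed to 6005 CPM in cluster 9. Clusters 1 and 5, with 1151 and 725 cells, reached 3 markers of no list and are called by number.

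*Pla2g2d* varied most between clusters, from 37.5 CPM in the cycling-like cluster 10 to 339 CPM in the interferon-like cluster 7, a span of 9.04-fold. The low end rested on 5 UMIs in YFP- cells (89.5 CPM) and 4 UMIs in YFP+ cells (21.7 CPM). In the *Ccr2*-led cluster 2, *Pla2g2d* was at 59.3 CPM (48.3 to 72.1) against 257 CPM in all other cells, a log2 ratio of -2.09 (-2.39 to -1.81). Both libraries gave like values, -2.07 (-2.80 to -1.42) in YFP- and -1.99 (-2.32 to -1.67) in YFP+ cells. With both libraries summed, *Pla2g2d* was also past 2-fold lower in cluster 6 (103 CPM, log2 ratio -1.15, -1.51 to -0.82), in cluster 9 (55.9 CPM, -1.97, -3.25 to -0.94) and in cluster 10 (-2.55, -3.64 to -1.64). In cluster 6 it was at 206 CPM from 22 UMIs in YFP- cells and 84.5 CPM from 51 UMIs in YFP+ cells. All cells of these libraries were at 305 and 189 CPM. *Pla2g2d* was at 223 CPM in cluster 1, 296 in cluster 3, 322 in cluster 4, 284 in cluster 5 and 259 in cluster 8, and its lowest levels were in clusters 2, 6, 9 and 10.

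The other members were more even. *St8sia4* ranged from 95.8 CPM in cluster 9 to 187 CPM in cluster 5, a span of 1.95-fold. *Il1rl1* was at 66.2 to 100.05 CPM in 8 clusters, and past 2-fold lower in cluster 8, at 31.0 CPM from 6 UMIs (log2 ratio -1.43, -2.81 to -0.33), and in cluster 9, at 31.9 CPM from 4 UMIs (-1.39, -3.15 to -0.05). *Maoa* was at 20.6 to 40.6 CPM in the 8 clusters with more than 3 of its UMIs. It had 0 UMIs in the cycling-like cluster. Set at the floor of 3 counts, it would be 2.19-fold lower there than in other cells, which is not a lower limit of the difference. *Aplnr* had more than 3 UMIs in 4 clusters (1, 2, 3 and 6), from 3.52 CPM (1.14 to 8.22) to 7.04 CPM (2.29 to 16.4), and these intervals overlapped. The counts that follow are of both libraries summed. Of the 4 members compared, 1 was past 2-fold lower in each of clusters 2, 6 and 8, where 1.27%, 2.76% and 7.04% of all genes were. In clusters 9 and 10, 2 of the 4 were, where 11.9% and 5.04% of all genes were. In cluster 10 these include *Maoa*, which had 0 UMIs, so that its call rests on being set at the floor. The shares of all genes cover genes with a mean of at least 20 CPM and set no gene at the floor. *Maoa* was under that mean in cluster 10, so its call there has no like share beside it. In the other clusters 0 of the 4 were, at 0.985% of all genes in cluster 1, 0.534% in cluster 3, 1.24% in cluster 4, 1.29% in cluster 5 and 3.13% in cluster 7.

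**Figure D3:**
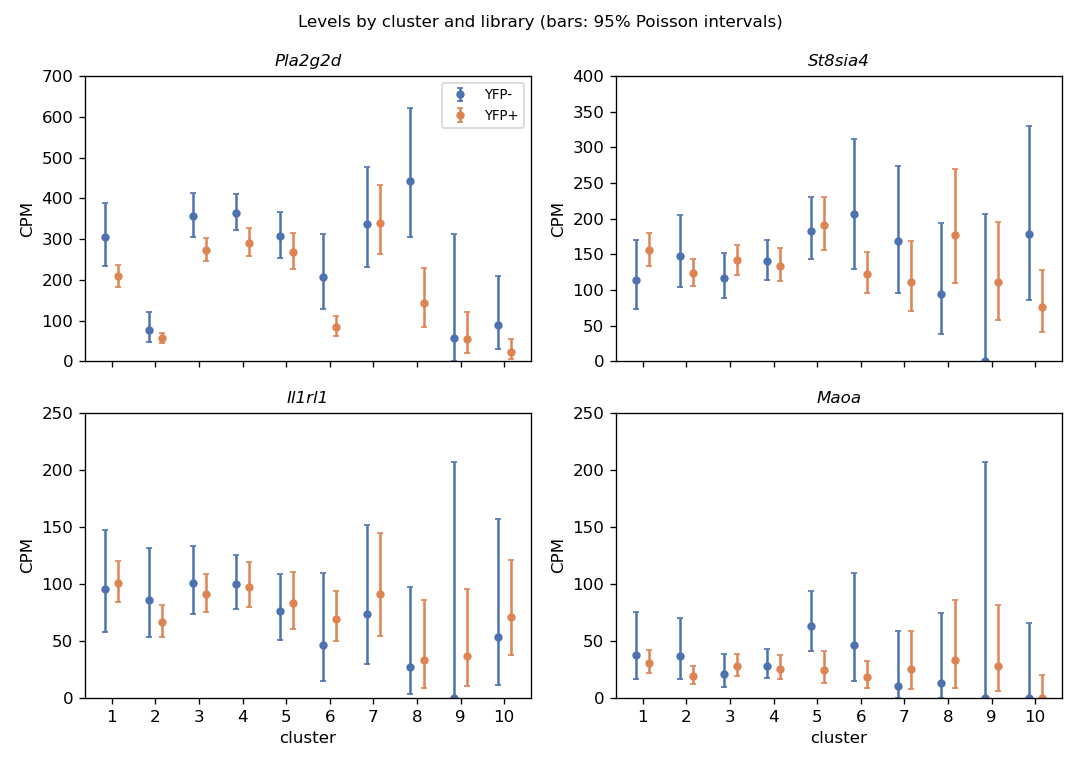
Levels (CPM) of *Pla2g2d*, *St8sia4*, *Il1rl1* and *Maoa* in each of 10 clusters, for YFP- (blue) and YFP+ (orange) cells, with 95% Poisson intervals; the vertical scale differs between panels. With both libraries summed, *Pla2g2d* is lowest in clusters 2, 6, 9 and 10, at 37.5 to 103 CPM, and *St8sia4* stays within 95.8 to 187 CPM.

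The clusters took different shares of each library, so the ratio between libraries was also taken within them. The *Ccr2*-led cluster 2, where *Pla2g2d* was low, made up 9.09% of YFP- and 18.8% of YFP+ cells. *Ccr2* itself was at 124 CPM in YFP- against 292 CPM in YFP+ cells, a log2 ratio of 1.23 (1.05 to 1.40). *Pla2g2d* had a log2 ratio below 0 in 9 of 10 clusters, with 5 intervals wholly below 0, while clusters 9 and 10 rested on 7 and 9 UMIs. In cluster 3 it was at 356 CPM in YFP- cells and 273 CPM in YFP+ cells, and in cluster 4 at 365 and 291 CPM. The widest gap among those 5 was in cluster 8, led by *Cd209f*, with 443 CPM from 33 UMIs in 48 YFP- cells and 143 CPM from 17 UMIs in 84 YFP+ cells (log2 ratio -1.63, -2.56 to -0.74). In the interferon-like cluster 7, the levels were 337 and 340 CPM. With the clusters weighted alike in both libraries, *Pla2g2d* was at 271.5 CPM in YFP- cells and 201.0 CPM in YFP+ cells, a log2 ratio of -0.43 in place of -0.69. Without cluster 2 it was -0.55 (-0.68 to -0.41).

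For 3 other members, equal shares moved the ratio by less than 0.1. There the log2 ratios were -0.02 for *Il1rl1*, -0.02 for *St8sia4* and -0.42 for *Maoa*. For *Aplnr*, which had 3 UMIs in YFP- cells, it was 0.995 in place of 1.39. *Il1rl1* and *St8sia4* had no cluster whose interval lay wholly on 1 side of 0. *Maoa* had 1, cluster 5, with 25 UMIs and 63.4 CPM in YFP- against 14 UMIs and 24.7 CPM in YFP+ cells (-1.32, -2.34 to -0.35).

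Genes were also compared between cells with and without a UMI of a member, in a list of 21 macrophage, monocyte and stress genes, at 500 UMIs per cell. Beside *Pla2g2d*, 4 of the 19 genes with a ratio in both libraries had intervals on the same side of 0 in both. The list was chosen and this rule was not applied to all genes, so the count describes the listed genes only. Intervals are narrow for genes with many UMIs, so small ratios can exclude 0. *S100a6* had log2 ratios of -1.36 (-2.98 to -0.09) in YFP- and -1.20 (-1.76 to -0.68) in YFP+ cells, and the heat shock gene *Hspa1a* of -1.01 (-1.72 to -0.37) and -0.92 (-1.26 to -0.59). *Apoe*, which encodes a lipid carrier, had ratios of 0.09 (0.03 to 0.16) and 0.35 (0.30 to 0.39), and *Lyve1*, a hyaluronan receptor of perivascular macrophages, of 0.77 (0.22 to 1.29) and 0.67 (0.27 to 1.06). *Ccr2* was at 65.0 CPM in the 369 YFP+ cells with a *Pla2g2d* UMI and at 308 CPM in the others, a log2 ratio of -2.23 (-3.17 to -1.42). In the 146 YFP- cells with a *Pla2g2d* UMI, *Ccr2* had 0 UMIs, against 95.7 CPM in the others. Set at the floor of 3 counts, it would be 2.33-fold lower, which is not a lower limit of the difference. The MHC class II genes *H2-Aa* and *Cd74* had ratios between -0.02 and 0.18.

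Thinning to 1000 UMIs kept 895 of 1045 YFP- and 2869 of 4053 YFP+ cells. The set of cells therefore differs from that at 500 UMIs as well as the depth. At 1000 UMIs per cell, *S100a6*, *Hspa1a* and *Apoe* kept their side of 0 in both libraries, and *Ccr2* had log2 ratios of -1.19 (-2.17 to -0.33) in YFP- and -1.71 (-2.16 to -1.28) in YFP+ cells. *Lyve1* in YFP- cells was then at 0.08 (-0.34 to 0.49). At 500 UMIs *Retnla* was at -0.81 (-1.09 to -0.54) in YFP+ cells with *Pla2g2d* and at 0.38 (-0.01 to 0.74) in YFP- cells, and at 1000 UMIs it was at -0.39 (-0.55 to -0.23) and -0.13 (-0.41 to 0.14), so the opposite signs of the lower depth were not seen at the higher. Beside *Il1rl1*, *St8sia4* and *Maoa*, which rested on 17 to 296 cells with a UMI, 7 ratios whose interval had excluded 0 turned sign between these depths, and they are not described further.

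**Figure D4:**
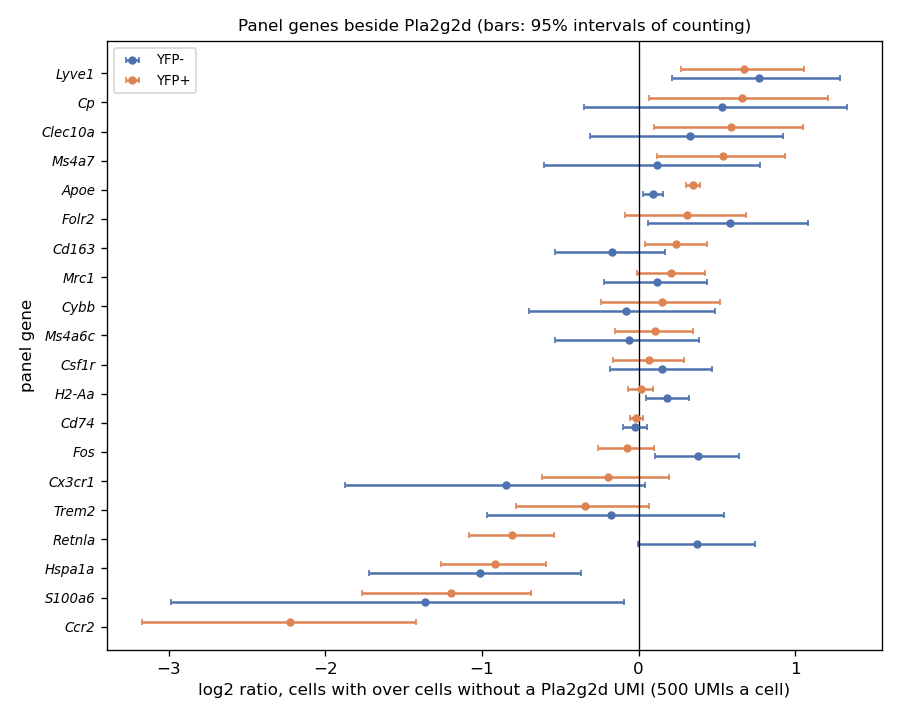
Log2 ratio of 20 panel genes in cells with a *Pla2g2d* UMI over cells without one, at 500 UMIs per cell, in YFP- (blue) and YFP+ (orange) cells, with 95% counting intervals; genes with 3 or fewer UMIs have no point. *Ccr2*, *S100a6* and *Hspa1a* lie left of 0 and *Lyve1* and *Apoe* lie right of it.

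Over cells, the genes most like *Pla2g2d* were sought among 2632 genes with a mean of at least 50 CPM by the lower of the Pearson correlations in 1045 YFP- and 4053 YFP+ cells. Cells of a library share its preparation, and depth differs between them, so these values are descriptions. For *Pla2g2d*, 11 genes reached 0.1 in both libraries, led by *Selenop*, a selenium carrier, with r of 0.15 in YFP- and 0.14 in YFP+ cells. *Pf4* followed with 0.18 and 0.14, then *Ccl24*, a chemokine for eosinophils, with 0.18 and 0.12, *Ftl1*, a ferritin chain, with 0.13 and 0.12, and *F13a1*, a subunit of coagulation factor XIII, with 0.12 and 0.14. All are weak. For *Il1rl1*, *St8sia4*, *Maoa* and *Aplnr*, 0 genes reached 0.1.

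Within counting error, pairs of members were seen together as often as their shares would give, apart from *Il1rl1* with *Maoa* in YFP- cells. Per-cell detection of *Il1rl1*, *Maoa* and *Aplnr* could not be told from free RNA, and that of *St8sia4* was near it. UMIs of free RNA would pair at the product of the shares. These counts therefore cannot show whether cells express the members together. Pairs with *Maoa* or *Aplnr* also rested on few cells. *Pla2g2d* and *St8sia4* were both seen in 32 YFP+ cells thinned to 500 UMIs, where 26.9 were expected from the product of the shares (observed over expected 1.19, 0.81 to 1.68). *Il1rl1* and *Pla2g2d* were both seen in 17 YFP+ cells against 15.8 expected (1.08, 0.63 to 1.73). In YFP- cells *Il1rl1* and *Maoa* were both seen in 3 cells against 0.586 expected (5.12, 1.06 to 15.0), but at 1000 UMIs the ratio was 1.47 (0.30 to 4.29). Unthinned, 38.5% of YFP- and 53.9% of YFP+ cells had no UMI of any member, and no cell had UMIs of all 5.

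Markers of other cells known for *Il1rl1* were near 0, while some markers of cells known for *Pla2g2d* and *Aplnr* were not. *Il1rl1* is also known from mast cells and type 2 innate lymphoid cells. The mast cell genes *Cpa3*, *Mcpt4*, *Tpsb2*, *Fcer1a* and *Ms4a2* (5 of 7 markers) and the lymphoid genes *Cd3e*, *Trbc2*, *Gata3* and *Il13* (4 of 7) had 0 UMIs in cells of both libraries. The 7 mast cell markers summed to 0.414 CPM in YFP- cells and 0.296 CPM in YFP+ cells, and the 7 lymphoid ones to 0.414 and 2.82 CPM. No cell had UMIs of 2 or more markers of either list, where 3 cells of the total would be 0.287% of YFP- and 0.0740% of YFP+ cells. This count does not limit the share of cells of these types. Dendritic cells also use *Pla2g2d*, and the 6 dendritic markers summed to 71.96 CPM (YFP-) and 64.6 CPM (YFP+), of which *Cd209a* gave 58.7 and 47.7. *Flt3* had 18 UMIs in YFP- and 72 in YFP+ cells, and *Zbtb46* had 14 and 38. *Xcr1* and *Clec9a*, which define a class of dendritic cells, had 0 UMIs in YFP- cells and 2 and 1 in YFP+ cells. UMIs of 2 or more dendritic markers were found in 1 YFP- and 13 YFP+ cells. Endothelial cells use *Aplnr*, and their 6 markers summed to 92.6 and 62.5 CPM, of which *Egfl7* gave 82.3 and 52.8. Cells with UMIs of 2 or more dendritic markers held 3 UMIs of *Pla2g2d*, or 0.149% of its UMIs in cells. Those with 2 or more endothelial markers held 0 UMIs of *Aplnr*. Cells of these types with fewer markers detected are not covered by these counts. The part of such cells in the levels of the members was not tested further. The 5 Schwann cell markers used, in contrast, summed to 504.95 CPM (YFP-) and 505.07 CPM (YFP+) and reached 15315 CPM in cluster 9. The log2 ratio of *Pla2g2d* between libraries was also -0.69 without clusters 4 and 9.

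The partners of the members were measured too. In the IL-33 pathway, 6 of 11 genes were compared, and 0 were past 2-fold, where 3.56% of all genes compared were. At that share, short lists such as this one and those that follow would mostly hold 0. The co-receptor gene *Il1rap* had 8 UMIs in YFP- and 27 in YFP+ cells (3.31 and 4.001 CPM), and *Il33* itself had 4 and 12. The signalling genes *Myd88*, at 29.4 and 25.8 CPM, *Irak1*, at 42.6 and 47.6 CPM, and *Irak4*, at 25.6 and 26.1 CPM, were at like levels in both libraries. Of the apelin list, *Apln* had 0 and 2 UMIs and *Apela*, which encodes ELA, had 0. 0 of the 4 apelin list genes compared, G protein and arrestin genes such as *Gnai2* and *Arrb2*, was past 2-fold.

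Of 18 phospholipase and eicosanoid genes, 7 were compared and 0 were past 2-fold, against 3.56% of all genes compared. Among the other secreted phospholipases listed, *Pla2g1b*, *Pla2g2e*, *Pla2g2f* and *Pla2g10* had 0 UMIs, *Pla2g5* and *Pla2g3* had 1 UMI each, and *Pla2g12a* had 28 and 74 UMIs. *Pla2g7*, the platelet-activating factor acetylhydrolase, was at 240 CPM in YFP- cells and 237 CPM in YFP+ cells (log2 ratio -0.02, -0.16 to 0.12). *Ltc4s*, the leukotriene C4 synthase, was lower in YFP+ cells, at 237 against 352 CPM (-0.57, -0.69 to -0.45), and the lysosomal phospholipase *Pla2g15* at 58.7 against 80.6 CPM (-0.45, -0.70 to -0.20). *Alox5ap*, which presents arachidonic acid to 5-lipoxygenase, was at 507 CPM in YFP- cells and 616 CPM in YFP+ cells (0.28, 0.19 to 0.37).

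Of 13 sialylation genes, 4 were compared and 0 were past 2-fold, against 3.56% of all genes compared. *St8sia2*, the other polysialyltransferase, had 0 UMIs in both libraries, as had *St8sia3* and *St8sia5*. Of the carriers, *Ncam1* had 0 and 1 UMI, and *Nrp2* was at 33.9 CPM in YFP- cells and 25.5 CPM in YFP+ cells (-0.40, -0.77 to -0.01). *Cadm1*, a further carrier, had 17 and 89 UMIs, or 7.03 and 13.2 CPM (0.82, 0.14 to 1.54), under the 20 CPM required for a comparison. *Nans* and *Cmas*, which make and activate sialic acid, had log2 ratios of 0.22 (-0.11 to 0.56) and -0.09 (-0.52 to 0.36).

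Of 10 monoamine genes, 2 were compared and 0 were past 2-fold, against 3.56% of all genes compared. *Maob*, the other monoamine oxidase, had 0 UMIs in both libraries, and the noradrenaline transporter gene *Slc6a2* had 3 and 2, at or under the floor. *Aldh2*, which acts on the aldehydes that MAOA makes, was at 155.5 CPM in YFP- against 155.9 CPM in YFP+ cells. The adrenergic receptor gene *Adrb1* was at 57.9 and 38.7 CPM, with a log2 ratio of -0.57 (-0.87 to -0.27).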

How the data were processed

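Sciatic nerve macrophages of 2 groups, YFP- and YFP+, were measured by 10x Chromium v2 single-cell RNA-seq as 1 library each. The authors deposited unfiltered matrices of UMI counts, mapped to GRCm38 and not normalized. The processing notes of the submitters name Cell Ranger 3.0.2 and Seurat 2.2.0, while the methods of the study name another version of the former. The release of the annotation is not given in the sources used here, and 99.9% of the gene identifiers were found in GENCODE M21. The study's filter on mapped reads could not be applied to UMI counts, and its cell counts rest on that filter.

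Counts were read with Python 3.11.15, SciPy 1.17.1 and pandas 2.3.3. Cells had at least 500 UMIs and 200 genes, and doublets were kept. UMIs were summed over cells and scaled to 1000000 (CPM). Levels have exact Poisson intervals, shares exact Clopper-Pearson intervals, and log2 ratios, with a pseudocount of 1 CPM, exact intervals conditional on the sum of both counts. Ratios and thinning were checked on simulated counts. Clustering used scanpy 1.11.5 and leidenalg 0.10.2 on 2000 variable genes without the members, with 20 components, 20 neighbours and a resolution of 0.8. A cluster was named where 3 of its 10 leading genes were markers of 1 list. The genes named are the members, genes of the panel and pathway lists, up to 5 genes most like a member with r of at least 0.1 in both libraries, and up to 3 leading genes of a cluster. The members and lists were chosen with earlier results of these data known. Marker genes of cell types are named only in the checks of cell identity. The library ratio without cluster 2 and the one at equal cluster shares were chosen after seeing the data. Alternatives changed the cell calling, pseudocount, thinning, scaling and clustering. No protein sequence was used here, and some listed genes are not reported here.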

Additional observations from a re-analysis of the deposited data

How the results depend on the processing

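No paired analysis was possible because each group is 1 library. The log2 ratio of *Pla2g2d* between libraries stayed between -0.73 and -0.63 under the 12 alternatives set out, and was -0.55 without cluster 2 and -0.43 at equal cluster shares, both outside its interval. Thinned to 500 UMIs, the ratio was 0.30 for *Il1rl1* and 2.57 for *Aplnr*, which then had 0 UMIs in YFP- cells, so that its value is no bound. Without clusters 4 and 9, *Pla2g2d* was at 281 CPM (YFP-) and 174 CPM (YFP+). Thinning to 1000 UMIs in place of 500 kept only the 895 YFP- and 2869 YFP+ cells of that depth. The shares of these YFP- and YFP+ cells with a UMI were 24.1% and 16.1% for *Pla2g2d*, 13.1% and 13.3% for *St8sia4*, 7.04% and 8.61% for *Il1rl1*, and 3.24% and 2.37% for *Maoa*. Unthinned, over all cells, the shares were 38.6% and 22.4%, 26.3% and 19.0%, 15.9% and 12.8%, and 6.79% and 3.85%, and 0.814% for *Aplnr* in YFP+ cells. The number of genes past 2-fold, 197, became 97 at a mean of at least 50 CPM and 1360 with no filter.

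The log2 ratio of *Pla2g2d* in the group found by the *Ccr2* marker list was between -2.70 and -1.96 under other clusterings. No group of interferon genes was found at a resolution of 0.4, none of fibroblast genes at 1.2 or with 1000 variable genes, and none of mural genes with 10 components. In the group of immediate early genes (clusters 3 and 6) it was 0.18, and -0.21 at a resolution of 0.4 and -0.27 with 10 components. In the group led by fibroblast genes it was 0.72, and -2.17 with 10 components, where that group had 33 cells, and *Il1rl1* was then at -2.33. At 1000 UMIs, *Retnla* beside *Il1rl1* in YFP- cells turned to 0.64, *Csf1r* and *Cd74* beside *St8sia4* in YFP- cells to -0.0067 and 0.0025, and *Apoe* beside *Maoa* in YFP- cells to -0.20. In YFP+ cells, *Cx3cr1*, *Mrc1* and *Fos* beside *Il1rl1* turned to 0.044, -0.081 and 0.021. The cause was not tested. Depth limits *Aplnr* most, at 36 UMIs in all.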

Other observations

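Depth per cell moved with the level of some members. In YFP- cells below the library's median depth of 2233 UMIs, *Maoa* was at 52.9 CPM (37.4 to 72.6) from 38 UMIs, and in cells from the median up it was at 24.7 CPM (17.8 to 33.4) from 42 UMIs. *St8sia4* was at 179.5 CPM (149.9 to 213) and 128.3 CPM (112 to 146.5) in the same cells, while *Pla2g2d* was at 296 and 309 CPM and *Il1rl1* at 84.9 and 87.7 CPM. In YFP+ cells, split at 1484 UMIs, *Maoa* was at 29.2 CPM (22.1 to 37.9) and 22.4 CPM (18.3 to 27.0) and *St8sia4* at 159.5 CPM (142 to 178.5) and 130.7 CPM (121 to 141.3). The shallow cells had the higher level of both genes in both libraries, though the intervals of *Maoa* overlapped in YFP+ cells. Depth also differed between clusters. With both libraries summed, cluster 5, at a median of 1163 UMIs, had the highest levels of *St8sia4* (187 CPM) and *Maoa* (40.6 CPM). *Maoa* was there at 63.4 CPM from 25 UMIs in YFP- cells and 24.7 CPM from 14 UMIs in YFP+ cells. In YFP+ cells several clusters were higher, such as cluster 1 at 30.6 CPM. Cluster 9, at a median of 950 UMIs, had the lowest level of *St8sia4* (95.8 CPM). The parts of free RNA and of the clusters in this were not tested.

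Of a list of 9 further genes that the study's text names as specific to nerve macrophages, which does not hold all that it names, 6 were compared and 0 were past 2-fold between the libraries. Of all genes compared, 3.56% were. *Ms4a4a*, a membrane protein gene of macrophages, was at 71.1 CPM (YFP-) and 36.01 CPM (YFP+) (log2 ratio -0.96, -1.24 to -0.68). *Cp*, which encodes the copper-carrying ferroxidase ceruloplasmin, was at 124 and 98.1 CPM (-0.34, -0.53 to -0.14). *Ms4a7* had a ratio of -0.33 (-0.46 to -0.19), *Ms4a6c* of 0.22 (0.14 to 0.30) and *Ms4a4c* of 0.46 (0.06 to 0.88), so genes of 1 family lay on both sides of 0. *Ifi202b* had 0 UMIs in cells of both libraries.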
